A study of Mus musculus with 2 samples.

Results

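Cytokine-high Kupffer cells were the liver-resident macrophages of WT replicate 1 whose transcripts of the cytokine gene Il6 and the chemokine gene Cxcl2 summed to at least 8 molecules. They were 845 of 1698 gated Kupffer cells (49.8%, 95% exact binomial interval 47.4 to 52.2), in a table of 9703 cells. The cells set against them came through the same gate in the same library and held at most 3 such molecules (616 cells, 36.3%), and 237 cells lay between. Livers of healthy wild-type C57BL/6 mice aged 8 weeks had been dissociated with enzymes, cleaned on a Percoll gradient and profiled with Chromium 3′ chemistry. The series has 2 samples of this 1 group, WT replicate 1 (7362 cells) and WT replicate 2 (2341 cells). The labels do not say that they came from separate animals, and no treatment or mutation is named. The label Kupffer cell is given here by marker genes alone.

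Kupffer cells sit inside the liver sinusoids, where they take up bacteria, aged red cells and proteins from portal blood. Microbial products or cell damage sensed by Toll-like receptors release the transcription factor NF-kappa-B from its inhibitor, and cytokine and chemokine genes are then read within a short time, together with genes for the inhibitors that end the response. Il6 encodes a cytokine that drives the acute-phase response of hepatocytes, and Cxcl2 and Cxcl1 encode chemokines that draw neutrophils.

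The gate was applied to unique molecular identifiers (UMIs), each of which stands for 1 captured transcript molecule. Of 7362 cells of replicate 1, 6765 had at most 20% mitochondrial UMIs, 5178 of these had at least 2500 UMIs, and 1799 of these had at least 0.8% of their UMIs in Clec4f, Vsig4, Timd4, Cd5l, Marco, C1qa and Adgre1 together. A further 101 cells with more than 1 UMI of the cell cycle genes Top2a and Mki67 were removed. No cell of replicate 2 reached the gate share, its highest value being 0.388%, so everything below rests on 1 library with no replicate. Cells of 1 library are not replicates, and no test was made. The intervals given are exact, at 95%, and cover counting error only. 5 barcodes occurred in both samples, and 0 of them were gated cells.

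Both sides carried Kupffer genes that the gate had not used. The B and C chains of complement C1q, C1qb and C1qc, stood at 3469 and 4218 counts per 1000000 UMIs of the summed cells (CPM) in cytokine-high cells, against 3575 and 4241 CPM in cytokine-low cells. The hemoglobin scavenger receptor Cd163 was at 653 CPM against 672 CPM, the folate receptor Folr2 at 976 CPM against 1003 CPM, and the growth factor receptor Csf1r at 1915 CPM against 1774 CPM. In 2266 cells of the same library chosen by endothelial markers, C1qb was at 22.4 CPM, Cd163 at 2.01 CPM and Csf1r at 9.42 CPM. Of the gate genes, the lectin Clec4f was at 4836 CPM in cytokine-high and 4878 CPM in cytokine-low cells, and Vsig4, a complement receptor, at 3056 CPM and 3038 CPM. The scavenger receptor Marco was uneven on both sides, with 0 UMIs in 390 of 845 cytokine-high and 313 of 616 cytokine-low cells.

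The cut lies in a continuous distribution. The sum of Il6 and Cxcl2 UMIs in cytokine-high cells ran to 125 with a median of 19, and 341 of the cytokine-low cells had a sum of 0. Just inside the cut, 47 cells had a sum of 8, and just outside it 63 cells had a sum of 7. Cytokine-high cells were also read more deeply, with a median of 6207 UMIs and 2397 genes per cell, against 4592.5 UMIs and 2023.5 genes in cytokine-low cells. A cut on UMIs takes more of the deeper cells, and results that bear on depth are given below. The mitochondrial share had a median of 2.49% in cytokine-high and 2.89% in cytokine-low cells.

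**Figure D1:**
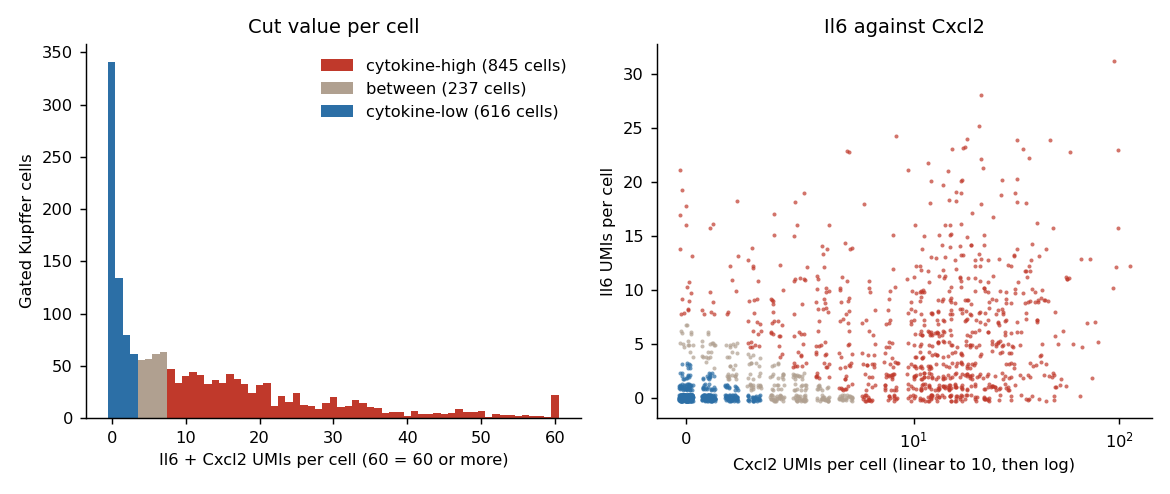
Left, number of gated Kupffer cells (vertical axis) by their summed Il6 and Cxcl2 UMIs (horizontal axis, 60 or more pooled), with cytokine-high, cytokine-low and in-between cells in separate colours. Right, Il6 UMIs against Cxcl2 UMIs in each cell, jittered, with the horizontal axis linear to 10 and logarithmic above. The distribution has no gap at the cut, and cytokine-high cells spread over all mixtures of both transcripts.

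The promoter sequences show where the cut genes and their regulators hold a binding motif of NF-kappa-B. These are the 250 bases before the RefSeq start sites of Il6, Cxcl2, Cxcl1 and the inhibitor gene Nfkbia (build GRCm38.p6), 5′ to 3′ on the strand of the gene, with matches to the NF-kappa-B consensus of 10 letters, on either strand, in capitals. The regions are chr5:30012864-30013113 (plus strand), chr5:90903649-90903898 (plus), chr5:90890995-90891244 (plus) and chr12:55492648-55492897 (minus).
Il6: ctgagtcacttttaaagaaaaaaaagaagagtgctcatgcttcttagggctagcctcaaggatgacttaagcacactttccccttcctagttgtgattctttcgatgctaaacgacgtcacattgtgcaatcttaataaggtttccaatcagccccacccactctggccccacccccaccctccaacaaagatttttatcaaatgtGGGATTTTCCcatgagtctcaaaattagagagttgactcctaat
Cxcl2: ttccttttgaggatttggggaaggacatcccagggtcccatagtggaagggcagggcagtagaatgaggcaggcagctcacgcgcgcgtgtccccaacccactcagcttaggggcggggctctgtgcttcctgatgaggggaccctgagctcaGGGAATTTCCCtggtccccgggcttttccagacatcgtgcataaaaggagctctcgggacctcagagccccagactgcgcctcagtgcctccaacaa
Cxcl1: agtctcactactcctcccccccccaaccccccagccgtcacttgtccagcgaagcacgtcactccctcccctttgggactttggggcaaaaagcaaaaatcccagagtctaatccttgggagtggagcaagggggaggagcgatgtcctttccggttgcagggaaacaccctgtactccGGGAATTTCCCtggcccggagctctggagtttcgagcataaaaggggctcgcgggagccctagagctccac
Nfkbia: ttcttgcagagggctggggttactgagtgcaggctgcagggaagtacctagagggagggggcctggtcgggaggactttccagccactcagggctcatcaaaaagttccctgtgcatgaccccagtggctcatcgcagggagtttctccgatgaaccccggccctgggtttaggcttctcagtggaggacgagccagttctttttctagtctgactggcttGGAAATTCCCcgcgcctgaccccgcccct

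The match of Il6 began 44 bases before the start site, that of Nfkbia 29 bases before it, and those of Cxcl2 and Cxcl1 97 and 71 bases before it. Both chemokine promoters held the same run, in which 2 matches overlap. No match to the consensus lay in the window from 250 bases before to 50 after the start of Tnf or Il1b, whose promoters held TATAAA, 29 and 31 bases before the start. A match is only a run of letters, and its absence from this window says nothing about the factor.

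Cxcl2 is a chemokine gene on chromosome 5 (90903871 to 90905938, plus strand, GENCODE vM21 on GRCm38), next to Cxcl1 (90891241 to 90893115, plus strand). Il6 lies farther off on the same chromosome (30013114 to 30019981, plus strand). As a description of what the cut selects, Il6 was at 935 CPM and Cxcl2 at 2568 CPM in cytokine-high cells, against 43.4 and 102 CPM in cytokine-low cells. Among the 845 members, 729 (86.3%) held both transcripts, 100 had no Il6 UMI and 16 had no Cxcl2 UMI. Il6 counts per member had a median of 5 and a maximum of 31, and Cxcl2 counts a median of 13 and a maximum of 113. The Il6 share of both counts ran from 0% to 100%, with a median of 24.3%, and 160 members (18.9%) had more Il6 than Cxcl2 UMIs.

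As a further description of what the cut selects, cytokine-high cells, with 13.8% of all UMIs of replicate 1, had 73.3% of its 7170 Il6 UMIs and 69.3% of its 20817 Cxcl2 UMIs. Of genes outside the rule they held 58.2% of the UMIs of Il10, 55.7% of Il1b, 50.2% of Tnf, 47.5% of Cxcl1 and 35.2% of Il1a. Free RNA gives UMIs to cells that do not make a transcript, so other cells of the library serve as a background. In 180 cells chosen by T and NK cell markers (median 3627.5 UMIs), Il6 was at 2.40 CPM and Cxcl2 at 18.0 CPM.

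Over the 9119 genes outside the rule that had at least 50 UMIs in the 2 sides together, 120 (1.32%) were at least 2-fold higher in cytokine-high cells and 72 (0.79%) at least 2-fold lower. These calls are by size alone. The median log2 fold was -0.07, and 90% of genes lay between -0.58 and 0.48. With the sides scaled to the median ratio of genes, 136 were higher and 49 lower. Of the 120 higher genes, 33 were predicted model genes, and 103 had a level in the 237 in-between cells that lay between the levels of both sides. As these genes were picked for a difference between the sides, such an order was partly set beforehand. The same count over all compared genes was not made.

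**Figure D2:**
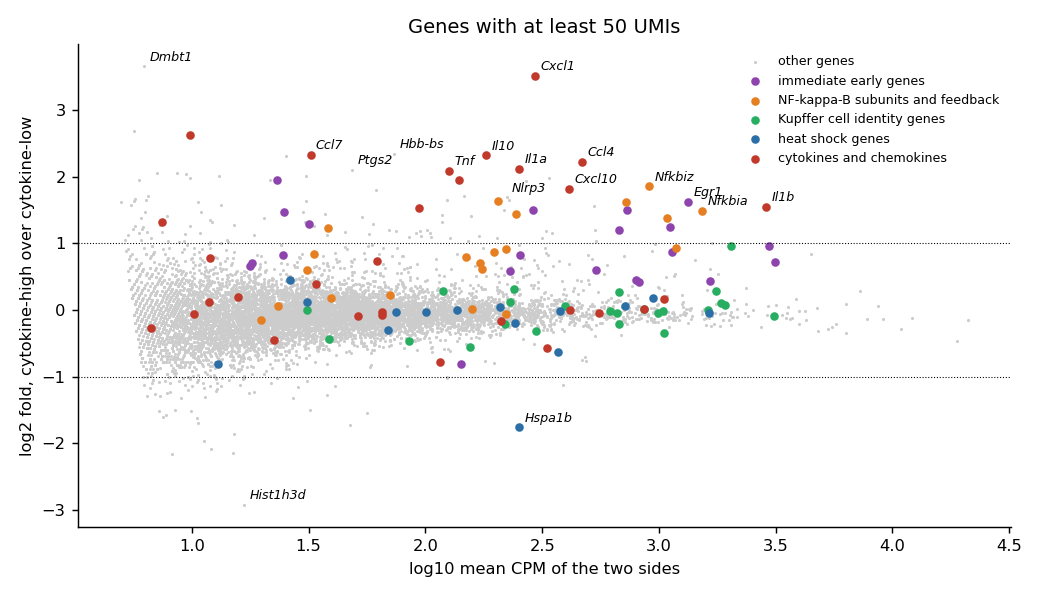
Log2 fold of cytokine-high over cytokine-low cells (vertical axis) against the mean level of both sides (horizontal axis, log10 CPM) for the genes with at least 50 UMIs, rule genes left out. Coloured points are genes of 5 groups, dotted lines mark 2-fold. Cytokine and chemokine genes, NF-kappa-B genes and immediate early genes lie mostly above 0, Kupffer identity genes around 0, and Hspa1b below the lower line.

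Cxcl1 had the widest fold among the chemokine and cytokine lists. This neutrophil chemokine was at 539.5 CPM in cytokine-high and 47.3 CPM in cytokine-low cells, an 11.4-fold difference (9.70 to 13.5). With each cell thinned to 2500 UMIs, 56.6% of cytokine-high cells and 8.93% of cytokine-low cells had a Cxcl1 UMI, and without thinning 67.0% and 14.4%. Endothelial marker cells had 49.8 CPM and a thinned share of 7.90%, hepatocyte marker cells 177 CPM and 33.8%, and cells of replicate 2 had 156 CPM and 16.4%. The cytokine-high level lay above all 3, and the cytokine-low level below the last 2. Reads of Cxcl1 and Cxcl2, which are similar paralogs, could in part be assigned to the wrong gene, since the counting rules for such reads are not given in the sources used here.

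The macrophage chemokines Ccl4 and Ccl3 are neighbours on chromosome 11. Ccl4 was at 772 CPM in cytokine-high and 165 CPM in cytokine-low cells (4.67-fold, 4.27 to 5.12), and Ccl3 at 222 CPM and 57.7 CPM (3.85-fold, 3.30 to 4.51). T and NK marker cells had 529.5 CPM of Ccl4 and 104 CPM of Ccl3, above the cytokine-low level for both. Single cells differed widely: 331 of 845 cytokine-high cells had no Ccl4 UMI, while the highest reached 135 per 10000 UMIs. Cxcl10, a chemokine for T cells, was at 642 CPM in cytokine-high and 182 CPM in cytokine-low cells (3.52-fold), but endothelial marker cells had more, at 857 CPM. The monocyte chemokine Ccl2 was at 139 CPM and 48.2 CPM (2.88-fold). Its neighbour Ccl7 was at 53.7 CPM and 10.7 CPM (5.03-fold), and a single cell held 23.8% of its UMIs in cytokine-high cells and another 34.3% in cytokine-low cells.

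Other chemokines of the same lists were not higher. Cxcl9 was at 85.4 CPM in cytokine-high and 146 CPM in cytokine-low cells, with 37.4% of the cytokine-low UMIs in 1 cell. Cxcl13, a chemokine for B cells, was at 267 CPM and 397 CPM. Cxcl16 was at 416 CPM and 417 CPM, and Ccl24, a chemokine for eosinophils, at 544 CPM and 564 CPM. In all, 2 of 7 compared CXC chemokines and 4 of 10 CC chemokines passed 2-fold upward and 0 downward. Their median log2 folds were -0.28 and 0.48. Over all compared genes, 1.32% were higher and 0.79% lower.

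Among cytokine genes, 6 of 13 were at least 2-fold higher and 0 lower, against 1.32% and 0.79% of all compared genes. The median log2 fold of the list was 0.74. Il1b, the main secreted form of interleukin 1, was abundant on both sides, at 4279 CPM in cytokine-high and 1462 CPM in cytokine-low cells (2.93-fold). Per cell it had a median of 44.6 per 10000 UMIs in cytokine-high cells, where 1 of 845 had none, and 8.75 in cytokine-low cells, where 91 of 616 had none. Its neighbour on chromosome 2, Il1a, was at 411 CPM and 94.7 CPM (4.34-fold, 3.85 to 4.90). Tnf was at 204 CPM in cytokine-high and 47.9 CPM in cytokine-low cells (4.26-fold, 3.60 to 5.06). Endothelial marker cells had 189 CPM of Il1a and 20.4 CPM of Tnf, and T and NK marker cells had 32.4 CPM of Il1a and 109 CPM of Tnf, so each gene had another cell type above the cytokine-low level.

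Il10, which restrains macrophage activation, was higher too. It was at 303 CPM in cytokine-high and 60.8 CPM in cytokine-low cells (4.99-fold, 4.30 to 5.81), while endothelial marker cells had 3.24 CPM. Its UMIs were spread unevenly: 564 of 845 cytokine-high cells and 542 of 616 cytokine-low cells had none, and the highest cytokine-high cell had 57.2 per 10000 UMIs. The T cell co-stimulator Tnfsf9 was at 16.9 CPM and 2.75 CPM, from 95 and 9 UMIs. The interleukin 1 receptor antagonist Il1rn was at 77.4 CPM and 46.4 CPM, the cytokine Il18 at 49.8 CPM and 53.1 CPM, and Tgfb1, a regulatory growth factor, at 198 CPM and 222 CPM; none of these 3 reached 2-fold.

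**Figure D3:**
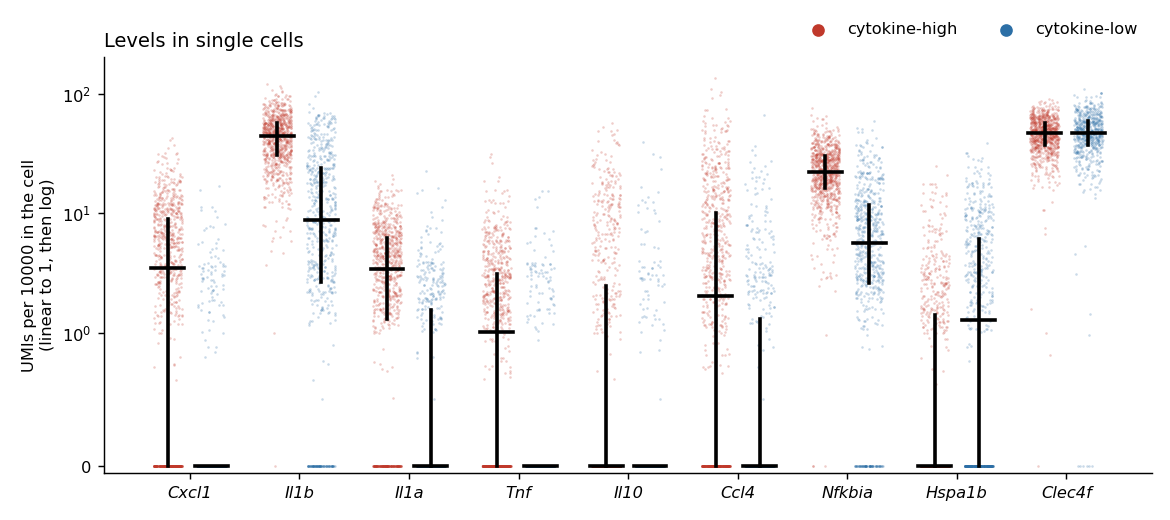
UMIs per 10000 in each cell (vertical axis, linear to 1 and logarithmic above) of 9 genes, cytokine-high cells left of cytokine-low cells. Each point is a cell, the horizontal bar is the median and the vertical bar the middle 50% of cells. Il1b and Nfkbia are shifted over nearly all cells, Il10 has UMIs in 33.3% and Ccl4 in 60.8% of cytokine-high cells, Hspa1b is shifted in the other direction, and Clec4f has the same median height on both sides.

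Of 21 genes of the NF-kappa-B subunit and feedback list, 7 were at least 2-fold higher, 14 were within 2-fold and 0 were lower. Over all compared genes, 1.32% were higher and 0.79% lower. The median log2 fold of the list was 0.84. Nfkbiz and Nfkbid, which encode nuclear proteins of the inhibitor family, the first of them a co-activator of Il6 transcription, were at 1425 and 308 CPM in cytokine-high cells, against 393 and 99.6 CPM in cytokine-low cells (3.63-fold and 3.09-fold). Nfkbia, the cytoplasmic inhibitor, was at 2257 CPM and 806 CPM (2.80-fold, 2.69 to 2.92), with a thinned share of cells of 98.2% against 72.4%. The ubiquitin-editing enzyme Tnfaip3 was at 1091 CPM and 355 CPM (3.07-fold). The subunit Rel had 189 CPM and 109 CPM, and the subunits Nfkb1 and Relb had 159 and 23.8 CPM in cytokine-high cells, against 157 and 22.9 CPM in cytokine-low cells.

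Of 21 genes that shorten cytokine RNA or dampen signalling, 4 were at least 2-fold higher and 0 lower. The shares over all compared genes were 1.32% higher and 0.79% lower. Dusp2, a phosphatase for MAP kinases, was at 540 CPM in cytokine-high and 137 CPM in cytokine-low cells (3.95-fold, 3.58 to 4.38). The RNA-binding protein Zfp36, which destabilises cytokine transcripts, was at 2261 CPM and 1122 CPM (2.02-fold), and the RNase Zc3h12a, which cuts the Il6 transcript, at 51.9 CPM and 23.8 CPM (2.18-fold). The repressor Atf3 was at 454 CPM and 200 CPM (2.27-fold). Zfp36 and Atf3 were close to the limit: Zfp36 had a log2 fold of 0.99 without cells carrying endothelial or hepatocyte UMIs, and Atf3 had 0.97 with cells thinned to 2500 UMIs.

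Of 20 genes of the Toll-like receptor list, which holds receptors, adaptors and further pathway genes such as Map3k8 and Irak3, 0 were called. The median log2 fold was 0.00. Over all 9119 compared genes 1.32% were higher and 0.79% lower, so 0 calls in a list of this size is near that share. Tlr4, the receptor for bacterial lipopolysaccharide, was at 54.4 CPM in cytokine-high and 58.9 CPM in cytokine-low cells, and the adaptor Myd88 at 60.7 CPM and 53.1 CPM. Cd14, the lipopolysaccharide co-receptor, came closest at 1275 CPM and 643 CPM (1.98-fold, 1.89 to 2.08). Of the inflammasome list 1 of 12 was higher, the sensor Nlrp3, at 340 CPM and 105 CPM (3.22-fold, 2.87 to 3.63). Ptgs2, the inducible prostaglandin synthase, was at 78.6 CPM and 18.3 CPM (4.29-fold), and 105 of 845 cytokine-high and 25 of 616 cytokine-low cells held it. It was the 1 called gene of 12 on the prostaglandin and lipid mediator list. Acod1, which makes itaconate, was the 1 called gene of 20 on the glycolysis and hypoxia list, at 46.4 CPM and 14.96 CPM (3.1-fold). The pattern receptor Clec4e was at 9.78 CPM and 1.53 CPM, from 55 and 5 UMIs.

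Interferon-induced genes did not follow as a group, and their number of calls was close to the share over all compared genes (1.32% higher, 0.79% lower). Of 29 genes, 1 was at least 2-fold higher, the guanylate-binding protein Gbp5 at 224 CPM in cytokine-high and 68.7 CPM in cytokine-low cells (3.26-fold, 2.83 to 3.78). The median log2 fold of the list was -0.08, and Isg15, a ubiquitin-like protein, was at 12.5 CPM and 7.33 CPM.

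Of 21 immediate early genes, which respond first to a stimulus, 8 were at least 2-fold higher, 13 were within 2-fold and 0 were lower. For all compared genes the shares higher and lower were 1.32% and 0.79%. The list had a median log2 fold of 0.83 and summed to 20618 CPM in cytokine-high and 11283 CPM in cytokine-low cells. The transcription factor Egr1 was at 2006 CPM and 652 CPM (3.08-fold), and 58 of 845 cytokine-high against 312 of 616 cytokine-low cells had none. Ier2 was at 1073 CPM and 380 CPM (2.82-fold), and Fos and Jun, the subunits of AP-1, were at 3918 and 939 CPM in cytokine-high cells, against 2370 and 705 CPM in cytokine-low cells, both within 2-fold. These genes were also read outside Kupffer cells: Egr1 was at 943 CPM in endothelial marker cells and at 1708 CPM in cells of replicate 2. The part of this early-gene level in the cytokine difference was not tested.

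Of 21 apoptosis and survival genes, 5 were at least 2-fold higher and 0 lower, against 1.32% and 0.79% of all compared genes. Cdkn1a, an inhibitor of the cell cycle, was at 229 CPM in cytokine-high and 85.8 CPM in cytokine-low cells (2.66-fold). The survival genes Bcl2a1a and Bcl2a1d were at 116 and 62.3 CPM in cytokine-high cells, against 54.4 and 27.8 CPM in cytokine-low cells, and as near-identical copies they may share reads. With sides divided by Il6 and Cxcl2 per 10000 UMIs, Bcl2a1d had a log2 fold of 0.92. Outside this list, Gdf15, a stress-induced hormone, was at 84.3 CPM and 34.5 CPM (2.44-fold), the 1 called of 17 TGF-beta and BMP signalling genes. Cd274, a ligand that inhibits T cells, was at 173 CPM and 81.5 CPM (2.12-fold), the 1 called of 22 MHC and antigen presentation genes.

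The best-covered gene on the lower side was Hspa1b, an inducible heat shock protein of the Hsp70 family. It was at 115 CPM in cytokine-high and 389 CPM in cytokine-low cells, 0.297 times as much (0.269 to 0.326). It had UMIs in 264 of 845 cytokine-high cells and in 326 of 616 cytokine-low cells. Its near-identical neighbour Hspa1a was at 290 CPM and 448 CPM, 0.647 times as much, and reads of both can be exchanged. Of 15 heat shock genes Hspa1b alone was called, where 0.79% of all compared genes were lower and 1.32% higher. The median log2 fold of this list was -0.03. The constitutive Hspa8 and Hsp90aa1 were at 1000 and 376 CPM in cytokine-high cells, against 883 and 380 CPM in cytokine-low cells.

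Transcripts of histone genes made up 4 of the 8 widest named differences on the lower side. Hist1h3d was at 3.91 CPM in cytokine-high and 29.6 CPM in cytokine-low cells (22 and 97 UMIs), Hist1h4d at 5.51 and 24.4 CPM, Hist1h2be at 4.63 and 19.5 CPM, and Hist1h2ac at 4.98 and 16.2 CPM. The gate had removed cells with more than 1 UMI of Top2a and Mki67 from both sides, so a low cell cycle level was largely set beforehand. As a description of the cells left, 771 members had no Top2a or Mki67 UMI. Without these rule genes, the cell cycle list was at 24.9 CPM in cytokine-high and 24.1 CPM in cytokine-low cells. A link of the histone levels to cycling was not tested. Histone genes are near-identical copies that may share reads. Inmt, Mgp and Gsn were lower as well, but 61.4%, 44.1% and 47.9% of their cytokine-low UMIs came from 1 cell each. Without the highest cell of each side, Inmt and Gsn no longer reached 2-fold, with log2 folds of -0.87 and -0.83. In 27 of the 72 lower genes and 5 of the 120 higher genes, 1 cell held at least 20% of the UMIs of the side with the higher level.

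Genes of Kupffer cell identity and of the main tasks of the cell had like levels on both sides. Of 24 identity genes outside the rule, 0 reached 2-fold, and the median log2 fold was -0.01. As only 1.32% of all 9119 compared genes were higher and 0.79% lower, 0 calls here and in the lists below is near that share. The iron exporter Slc40a1 was at 3030 CPM in cytokine-high and 3209 CPM in cytokine-low cells, the lectin Fcna at 1977 and 1870 CPM, and the nuclear receptor Nr1h3 at 646 and 622 CPM. Id3, a transcriptional regulator that Kupffer cells need, stood apart within the list at 2678 CPM and 1376 CPM (1.95-fold, 1.88 to 2.01). In the lists for the lysosome (24 genes), complement (17), cholesterol handling (23), iron and heme (18), Fc receptors (8), oxidative stress (16), mitochondrial respiration (18), adhesion (21) and cytosolic ribosomal proteins (18), 0 genes were at least 2-fold higher or lower. Of 20 genes of the scavenger and lectin receptor list, Clec4e was higher, and Lyve1 and Cd209f were lower, at 17.6 and 6.40 CPM in cytokine-high cells, against 39.1 and 12.8 CPM in cytokine-low cells. Both rested on few UMIs, and 1 cell held 45.5% of the Lyve1 UMIs of cytokine-high cells. With gate genes at 1.6% or more Lyve1 was no longer lower, and Cd209f, just at the limit, was 0.560 times as high with sides divided by Il6 and Cxcl2 per 10000 UMIs.

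Levels were also read along the cut value for a few chosen genes. Cxcl1 was at 26.0 CPM in cells with an Il6 and Cxcl2 sum of 0, then at 73.5, 234, 399, 543 and 679 CPM in cells with sums of 1 to 3, 4 to 7, 8 to 15, 16 to 31 and 32 or more. Tnf ran through 27.1, 73.5, 90.7, 178, 206 and 228 CPM over the same 6 ranges. Il10 ran through 31.6, 96.6, 257, 307, 312 and 287 CPM, so that from the range of 4 to 7 upward it lay between 257 and 312 CPM. Nfkbia ran through 569, 1097, 1870, 2065, 2252 and 2462 CPM. Ptgs2 ran unevenly through 7.76, 31.3, 30.2, 92.1, 62.5 and 87.4 CPM. Hspa1b ran downward from the second range on, through 365, 418, 268, 173, 109 and 64.8 CPM. The median depth of the 6 ranges was 4568, 4699, 4181, 4948, 6068 and 8646 UMIs, and the gate gene Clec4f stayed between 4563 and 5156 CPM. C1qb, which the gate did not use, ran through 3806, 3290, 2937, 2932, 3185 and 4420 CPM.

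**Figure D4:**
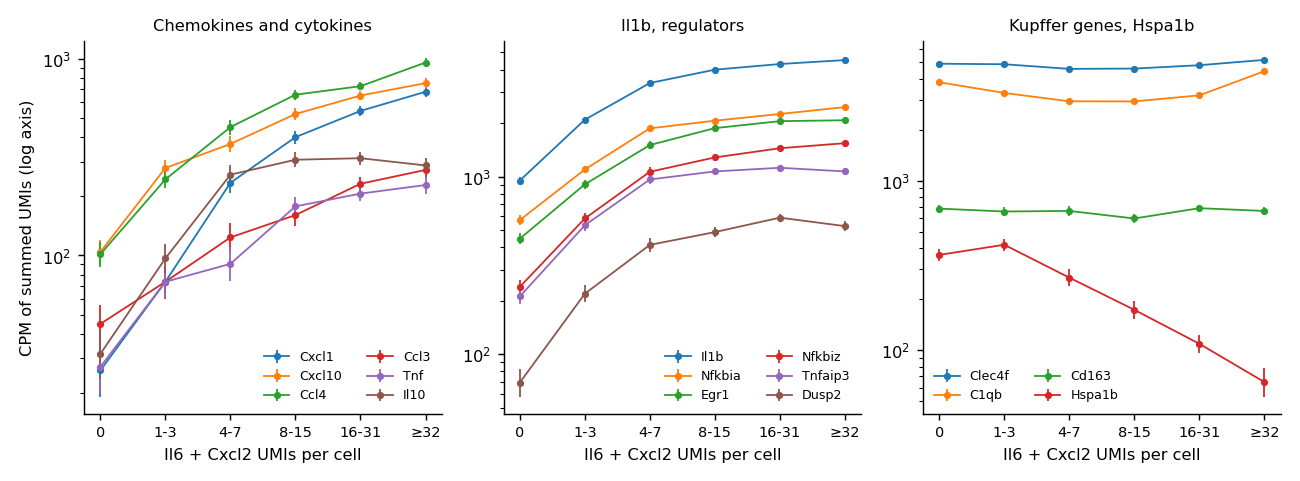
CPM of summed UMIs (vertical axis, logarithmic, with 95% Poisson intervals) over 6 ranges of Il6 and Cxcl2 UMIs per cell (horizontal axis), for chemokines and cytokines (left), Il1b and regulators (middle) and Kupffer genes with Hspa1b (right). Cxcl1, Ccl3, Ccl4 and Tnf are highest in the last range, though the last 2 intervals overlap for Ccl3 and Tnf. Il10 and Tnfaip3 level off from the 4 to 7 or 8 to 15 range on, and Dusp2 is highest at 16 to 31. Hspa1b declines, and Clec4f and Cd163 stay level.

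Within ranges of depth, Cxcl1, Il1b, Tnf and Nfkbia were higher and Hspa1b lower in cytokine-high cells in every range. In 4 ranges of depth that began at 2500, 4000, 6000 and 9000 UMIs per cell, Cxcl1 was 7.21, 15.6, 12.8 and 25.3 times as high in cytokine-high as in cytokine-low cells. For Il1b the ratios were 2.62, 2.92, 3.12 and 4.99, for Tnf 4.07, 5.32, 5.97 and 2.94, and for Nfkbia 2.64, 2.94, 2.96 and 3.72. Hspa1b was 0.309, 0.424, 0.240 and 0.363 times as high, and Clec4f 0.866, 0.966, 0.923 and 1.118 times. When cells were divided by Il6 and Cxcl2 per 10000 UMIs with the same numbers of cells, 761 of 845 members stayed on the high side, the median depths were 5497 and 5059 UMIs, and 107 genes were higher and 108 lower.

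Markers of other cell types were read as well, since free RNA and doublets can carry them. Hepatocyte markers summed to 1620 CPM in cytokine-high and 1970 CPM in cytokine-low cells, sinusoidal endothelial markers to 420 and 483 CPM, B cell markers to 22.95 and 54.97 CPM, and cholangiocyte and mesothelial markers to 167 and 297 CPM. T and NK cell markers were at 34.7 CPM in cytokine-high, 116 CPM in in-between and 15.9 CPM in cytokine-low cells. The monocyte list was at 1962 CPM in cytokine-high and 1428 CPM in cytokine-low cells, of which Nr4a1, also an immediate early gene, made up 942 and 409 CPM. The defining monocyte genes Ly6c2 and Ccr2 had 8 and 17 UMIs in all cytokine-high cells, against 5 and 11 UMIs in cytokine-low cells, and Chil3 had 0 against 15. Neutrophil markers summed to 56.7 CPM in cytokine-high and 53.7 CPM in cytokine-low cells, most of it Csf3r at 48.7 and 43.1 CPM. S100a8, S100a9 and Hdc had 6, 17 and 21 UMIs in cytokine-high cells, against 7, 13 and 10 UMIs in cytokine-low cells. Mmp8, Retnlg and Cxcr2 had 1, 0 and 0 UMIs in cytokine-high cells, against 3, 1 and 1 UMIs in cytokine-low cells. Ly6g had 0 UMIs on both sides.

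Hemoglobin transcripts came from a few cells. Hbb-bs was at 123 CPM in cytokine-high and 24.1 CPM in cytokine-low cells, but 2 cytokine-high cells held more than 5 hemoglobin UMIs, and the 5 highest held 1168 of 1179. Dmbt1, the named gene with the widest higher fold, had 65 UMIs in cytokine-high cells and 3 in cytokine-low cells, of which 55 were in 1 cell. With all cells left out that had more than 5 UMIs of hemoglobin, mesothelial, cholangiocyte, fibroblast or B cell genes, a choice made after seeing the data, 837 cytokine-high and 606 cytokine-low cells remained, with 116 genes higher and 55 lower, and Cxcl1 was 11.5-fold higher. The part of doublets in the remaining differences was not tested.

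**Figure D5:**
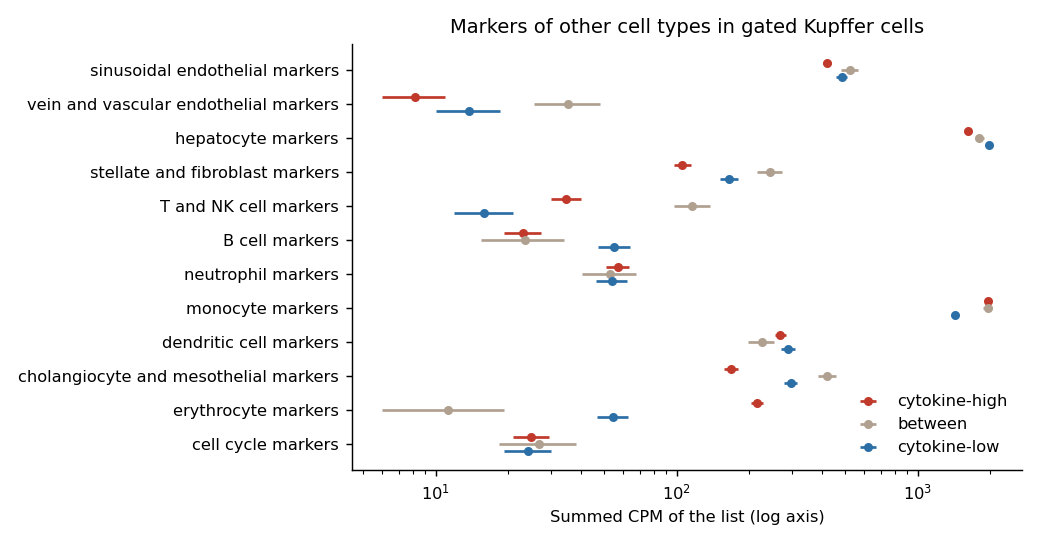
Summed CPM (horizontal axis, logarithmic, with 95% Poisson intervals) of marker lists of other cell types and of the cell cycle in cytokine-high cells (upper point of each list), in-between cells (middle) and cytokine-low cells (lower). Monocyte, T and NK cell and erythrocyte lists are higher in cytokine-high than in cytokine-low cells, hepatocyte, B cell, stellate and mesothelial lists are lower.

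Members differed in which of the cut genes they carried. The 212 members with the highest Il6 share (at least 44.0%), called Il6-rich, were set against the 212 with the lowest (at most 9.09%), called Cxcl2-rich. Over 6044 genes outside the rule with at least 50 UMIs in these cells, 20 (0.331%) were at least 2-fold higher in Il6-rich members and 28 (0.463%) lower. Several of the higher calls rested on 1 cell, which held 94.8% of the Il6-rich UMIs of Dmbt1, 94.5% of Slpi and 75.7% of C3. In others, such as Fmr1 and Usp38, the highest cell held 4.41% and 3.92%. Tnf was at 257 CPM in Il6-rich and 160 CPM in Cxcl2-rich members (1.61-fold, 1.36 to 1.91), Gbp5 at 276 and 170 CPM, and Ccl2 at 180 and 111 CPM. Pf4, a chemokine known from platelets, was at 55.9 CPM in Il6-rich and 186 CPM in Cxcl2-rich members, 0.30 times as much (0.227 to 0.392). A single cell held 20.4% of the Pf4 UMIs of Cxcl2-rich members, and a single cell 26.5% of their Ccl2 UMIs. Cxcl1, at 467 and 492 CPM, and Il1b, at 4408 and 3920 CPM, lay close together. The median depth was 5211.5 UMIs in Il6-rich and 6721.5 UMIs in Cxcl2-rich members.

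The genes most like Il6 over the 1698 gated cells, each thinned to 2500 UMIs, were Nfkbia (Spearman rho 0.480), Il1b (0.457), Cxcl2 (0.442), Nfkbiz (0.421) and Egr1 (0.420), where the median over 3203 genes was -0.003. These are descriptions over cells of 1 library. Within the 845 members the values were lower, at 0.213 for Nfkbia, 0.217 for Egr1 and 0.150 for Il1b, and -0.020 for Cxcl2, which the cut ties to Il6. Among 120 pairs of 16 response genes within members, Ccl4 and Ccl3 were most alike (0.347), followed by Egr1 and Nfkbia (0.312).

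Over all promoters of the RefSeq table, the NF-kappa-B consensus lay in 8.46% of 32851 windows from 250 bases before to 50 after the start site, on either strand. It was in 10.4% of 9128 windows of genes compared here, in 19 of 88 windows (21.6%) of the 64 higher genes that matched by symbol, and in 6 of 60 (10.0%) of the 47 lower genes that matched. The AP-1 motif TGANTCA was in 5.07%, 11.4% and 13.3% of these 3 sets. The higher genes with the consensus included Cxcl1, Cxcl10, Nfkbia, Nfkbid, Nfkbie, Tnfaip3, Nlrp3 and Gbp5. Shares of promoters are given as a description with no test.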

How the data were processed

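Single cells of wild-type liver, from 2 replicates of 1 group, stand in 1 deposited table of 22508 genes and 9703 cells, whose values are raw UMI counts as the authors deposited them. Cells were assigned to a replicate by the number at the end of the barcode, matched to the sample titles. The submitters' processing notes name Cell Ranger 2.1.1, Seurat 3.1 and GRCm38; the steps each tool took, and how reads of paralogs were assigned, are not given in the sources used here. Replicate 1 had 40645060 UMIs and replicate 2 had 11867207, and 22490 gene symbols (99.92%) matched GENCODE vM21.

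UMIs were summed over the cells of each side (5621539 in cytokine-high, 3274630 in cytokine-low cells) and scaled to CPM. Levels have exact Poisson intervals and shares Clopper-Pearson intervals; for ratios, the UMIs of one side were taken as a binomial share of both sides' sum. They cover counting error only. A gene was called at 2-fold with at least 50 UMIs, a count of 0 being set to 3. The summing was tested on simulated counts. The genes named were the 12 widest higher and 8 widest lower (without rule, mitochondrial, ribosomal, model and other-type marker genes) and up to 4 per list; some further list members are named as examples, chosen after their values were seen. For shares, cells were thinned to 2500 UMIs. T and NK marker cells had at least 5 UMIs of the list and at most 0.2% gate genes, and endothelial marker cells at least 0.3% endothelial markers. Doublets were scored with Scrublet in scanpy 1.11.5, which called 8 of 6765 cells (0.118%) and 0 gated cells. A share that low means that the calling has not worked, so doublets were not removed, and leaving out the highest 5% of scores was an alternative. Promoter sequences are from RefSeq (GRCm38.p6). The cells and gene lists were chosen with earlier results of these data known.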

Additional observations from a re-analysis of the deposited data

Results flagged for a closer look

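Il6 and Cxcl2 were also read in Kupffer cells that the gate leaves out. In 735 cells of replicate 1 that met the marker, mitochondrial and cell cycle limits but had at least 500 and under 2500 UMIs, both genes summed to 1435 CPM (1364 to 1509), and 53 cells (7.21%) reached 8 UMIs at a median depth of 1410 UMIs. In 101 cells that met all other limits but had 2 or more Top2a and Mki67 UMIs, both genes summed to 2416 CPM (2317 to 2518). Of these, 70 (69.3%, 59.3 to 78.1) reached 8 UMIs, at a median depth of 8191 UMIs. T and NK marker cells of the same library had 20.4 CPM, with 0 of 180 cells at 8 UMIs. The 1698 gated cells, with at most 1 UMI of Top2a and Mki67, had a share of 49.8%, and the difference in share was not tested.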

How the results depend on the processing

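The count of higher genes was 120 and moved past 1.5-fold under 3 of 16 alternatives: 182 against cells with no Il6 or Cxcl2 UMI, 200 at 20 UMIs per gene and 72 at 200 UMIs. The count of lower genes was 72 and moved to 41 with cells thinned to 2500 UMIs and to 43 with gate genes at 1.6% or more. It moved to 291 at 20 UMIs and to 12 at 200 UMIs. Each of these settings changes which genes are compared, and otherwise the cause was not tested. Of the 120 higher genes 85, and of the 72 lower genes 22, kept their call in every alternative that compared them; Cxcl1, Il10 and Hspa1b were among them, as were Mgp and Col14a1, which had under 50 UMIs without cells of other types and were 0.523 and 0.633 times as high there. The number of members was 561 with cells of at least 5000 UMIs. Among the 58 named genes with a fold of 2 or more, 4 of 854 values turned direction (among the other named genes, 26 values of 13 genes did): with gate genes at 1.6% the log2 fold of Lyve1 was 0.048 and that of Igfbp5 1.46, Igfbp5 was 2.02 without cells carrying endothelial or hepatocyte UMIs, and Hbb-bs was -4.09 without the highest Scrublet scores. Without the top cell of each gene, added after seeing the data, 132 genes were higher and 60 lower, Dmbt1 was 1.54 in log2 and Inmt -0.87. No paired analysis was possible because both sides come from 1 library and no test was made. Rare transcripts such as Clec4e and Tnfsf9 are limited by UMI numbers under 100.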

Other observations

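Genes outside the lists were also at least 2-fold higher in cytokine-high cells, and they were picked here after their values were seen. Hilpda, a lipid droplet protein, was at 427 CPM in cytokine-high cells (log2 fold 1.93), Ccrl2, a chemokine-binding receptor, at 347 CPM (1.66), and Ppp1r15a, which relieves the block of translation after stress, at 785.5 CPM (1.56). The phosphodiesterase Pde4b was at 172 CPM (1.42), the growth factor Hbegf at 204 CPM (1.03) and the kinase Pim1 at 740 CPM (1.20). Hbegf, close to the limit, did not keep its call in every alternative, while the others named here did.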
